A study of Mus musculus with 8 samples.

Results

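Interferon-response genes are genes that carry, sense or answer an interferon signal. A list of 37 of them was taken, and the members were found as the rows of a deposited table of transcription start clusters whose gene symbol equals a listed name. Of the 37 genes, 36 were found, out of 16094 gene symbols in the whole table. These 36 genes held 71 of the 46376 clusters that carry a gene. The table comes from CAGE (cap analysis of gene expression), which reads the capped 5′ ends of RNA and groups them into clusters of start sites. Facial skin was taken from 8 C57BL/6 mice on postnatal day 28. The lesional group was 4 Cre-positive mice homozygous for a floxed Ikk2 allele (Nectin-cre(+);Ikk2FL/FL in the sample labels, Nestin-cre in the series text), with lesional skin. The other group was 4 mice labelled as control, with non-lesional skin and no further genotype given. Lesion and genotype therefore cannot be told apart in these groups, and the cells in which the Cre driver acted are not stated. IKK2 is a kinase that activates NF-κB. The 8 columns of values carry names that match no sample or group label, so they were not used, no level of any gene is given, and lesional skin was not compared with control skin. Depth was not analysed here. What can be read is where the start clusters of the interferon genes lie, how wide they are and what surrounds them, in a catalogue made over the series. The markers fixed for keratinocytes, Krt5, Krt14, Krt1, Krt10 and Flg, all had clusters (5 of 5). A cluster was present for 63.3% of all protein-coding genes, so this count alone does not show the cell type.

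Type I interferons bind the receptor pair Ifnar1 and Ifnar2, and interferon γ binds Ifngr1 and Ifngr2. JAK kinases then phosphorylate STAT proteins. A complex that holds STAT2 and IRF9 binds the interferon-stimulated response element (ISRE), whereas the interferon γ signal acts through the γ-activated sequence (GAS). The genes switched on this way encode antiviral proteins, RNA sensors and the immunoproteasome and peptide transporter that load MHC class I. Keratinocytes and infiltrating cells of skin can carry this response.

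Promoters of 8 genes that carry the ISRE are shown first, chosen because the element can be read in the letters. Some other antiviral genes lack it. The sequences are from RefSeq (GRCm38.p6), 5′ to 3′ on the gene's strand, and end at the base before the annotated start. Capitals mark the ISRE core, a pair of GAAA repeats with 2 bases between them, or its reverse complement, in which the repeat reads TTTC. Overlapping matches run together. Isg15 encodes a ubiquitin-like protein that is joined to other proteins, and its stretch lies at chr4:156200819-156200918 (minus strand). Ifit1 encodes a protein that binds viral RNA, and Ifit3 a partner of it, at chr19:34640769-34640888 and chr19:34583359-34583528 (plus strand). Oas1a, of the family that makes 2-5A in answer to double-stranded RNA, is at chr5:120907526-120907635 (minus). Gbp2 and Gbp3, GTPases that act on vacuoles of pathogens, are at chr3:142620563-142620662 and chr3:142559944-142560043 (plus). Bst2, the tether that holds virus particles at the cell surface, is at chr8:71537473-71537622 (minus), and Rsad2, which encodes the enzyme viperin, is at chr12:26456453-26456592 (minus).
Isg15: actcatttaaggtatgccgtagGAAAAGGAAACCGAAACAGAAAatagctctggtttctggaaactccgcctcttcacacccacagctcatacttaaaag
Ifit1: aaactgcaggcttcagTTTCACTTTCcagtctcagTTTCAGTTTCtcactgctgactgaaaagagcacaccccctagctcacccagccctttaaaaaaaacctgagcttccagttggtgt
Ifit3: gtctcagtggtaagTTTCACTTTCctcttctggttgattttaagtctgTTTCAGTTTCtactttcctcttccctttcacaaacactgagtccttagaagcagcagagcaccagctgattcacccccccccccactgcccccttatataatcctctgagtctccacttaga
Oas1a: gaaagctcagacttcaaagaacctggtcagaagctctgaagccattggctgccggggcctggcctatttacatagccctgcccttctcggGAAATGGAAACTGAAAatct
Gbp2: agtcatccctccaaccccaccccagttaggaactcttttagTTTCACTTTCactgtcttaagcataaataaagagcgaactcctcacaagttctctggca
Gbp3: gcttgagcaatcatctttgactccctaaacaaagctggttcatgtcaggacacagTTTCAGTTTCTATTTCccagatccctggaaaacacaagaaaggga
Bst2: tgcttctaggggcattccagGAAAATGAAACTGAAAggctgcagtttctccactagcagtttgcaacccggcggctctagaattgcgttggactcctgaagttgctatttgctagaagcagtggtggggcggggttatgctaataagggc
Rsad2: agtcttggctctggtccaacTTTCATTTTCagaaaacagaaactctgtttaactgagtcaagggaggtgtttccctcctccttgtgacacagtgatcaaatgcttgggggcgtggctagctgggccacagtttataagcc

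Isg15 had 3 overlapping matches, beginning 78, 72 and 66 bases before its start. Ifit1 had its pair at 104 and 85 bases before the start, and Ifit3 at 156 and 122 bases. The pairs of Oas1a (20 and 14 bases), Gbp3 (45 and 39 bases) and Bst2 (130 and 124 bases) overlap, so that each forms a run of repeats. Gbp2 had a single match at 59 bases and Rsad2 one at 120 bases. A promoter sequence of 300 bases (250 before to 50 after the start) was in the RefSeq table for 33 of the 37 genes, with 38 sequences in all. Mx1, Mx2, Oas2 and Usp18 had none there. The ISRE core was found for 15 of the 33 genes, in 15 of the 38 sequences (39.5%), and in 3.44% of all 32851 promoter sequences of the table. Of the 38 sequences, 7 (18.4%) held more than 1 match, as did 74 of all sequences (0.225%). The list holds genes with a known part in the interferon response, which acts partly through this element, so the count is a description of the list. The Ifit, Oas, Gbp and Ifitm genes are also families of related copies and are not independent of each other.

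The other genes with an ISRE core were Oas3 (75 bases before the start), Ifitm2 (46), Irf2 (241) and Stat2 (222). In Ddx58, Ifih1 and Ifitm3 it lay past the annotated start, from base 3, base 33 and bases 3 and 20 respectively. Of the 23 matches, 16 began in the last 150 bases before the start, 3 farther upstream and 4 after it. By role, 10 of 16 antiviral effector genes with a promoter sequence held it, both RNA sensors did, and Isg15 did. Of the 7 transcription factor genes 2 did, and none of the 4 receptor genes or the 3 antigen-processing genes. No match says only that these letters are not in the window: Ifi44, Ifi35, Ifitm1, Ifit2, Oasl1 and Oasl2 are antiviral genes without one.

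**Figure D1:**
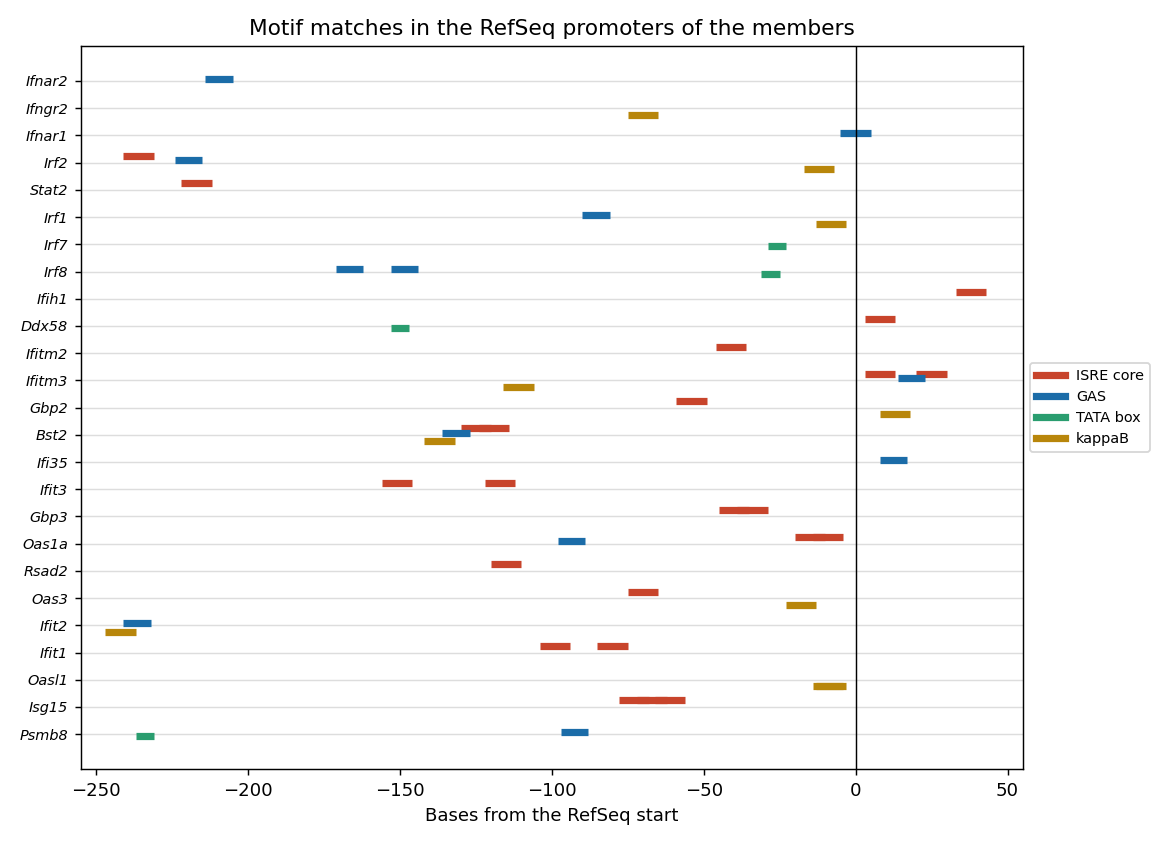
Positions of 4 motifs in the RefSeq promoters of the interferon-response genes that held any, in bases from the annotated start (vertical line), with each bar covering the matched bases. ISRE cores of the antiviral genes lie mostly in the last 150 bases before the start.

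The GAS motif (TTC and GAA with 3 bases between them, which reads the same on both strands) was found for 11 of the 33 genes, in 28.9% of their sequences and in 8.3% of all promoter sequences. Its carriers were Irf1, Irf2, Irf8, Bst2, Ifi35, Ifit2, Ifitm3, Ifnar1, Ifnar2, Oas1a and Psmb8. Bst2, Ifitm3, Irf2 and Oas1a held both elements, and 11 genes held neither. The letters of the TATA box (TATAAA on the gene's strand) were found for 4 genes, in 10.5% of their sequences against 8.32% of all, which is close to the background. The match began 29 bases before the start in Irf7 and 31 in Irf8, the usual place of a TATA box, but 153 in Ddx58 and 237 in Psmb8, far upstream of it. The κB motif, the sequence bound by NF-κB, was added after the promoters had been seen, because IKK2, whose floxed allele the lesional mice carry, acts on NF-κB. It was searched on both strands and found for 9 of the 33 genes (Bst2, Gbp2, Ifit2, Ifitm3, Ifngr2, Irf1, Irf2, Oas3 and Oasl1), in 23.7% of their sequences and 8.46% of all. In Bst2 and Ifit2 the κB match overlaps the GAS match. A match is not shown to be a binding site.

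The promoters of the transcription factor genes Irf1, Irf7 and Irf8 held no ISRE core and are shown here for their GAS, κB and TATA matches, in capitals. Irf1, a factor that amplifies the interferon γ response, is at chr11:53769904-53770013 (plus), with GAS 90 bases and κB 13 bases before the start. Irf8, a factor of myeloid and dendritic cells, is at chr8:120736178-120736357 (plus), with GAS at 171 and 153 bases and a TATA box at 31 bases. Irf7, the factor that amplifies type I interferon production, is at chr7:141266425-141266524 (minus), with a TATA box 29 bases before the start.
Irf1: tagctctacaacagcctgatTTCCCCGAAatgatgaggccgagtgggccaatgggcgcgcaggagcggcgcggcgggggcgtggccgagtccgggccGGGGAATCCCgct
Irf8: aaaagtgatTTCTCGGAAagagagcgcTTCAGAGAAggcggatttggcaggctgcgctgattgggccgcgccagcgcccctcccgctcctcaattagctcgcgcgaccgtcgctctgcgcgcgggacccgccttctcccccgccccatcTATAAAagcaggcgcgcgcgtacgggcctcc
Irf7: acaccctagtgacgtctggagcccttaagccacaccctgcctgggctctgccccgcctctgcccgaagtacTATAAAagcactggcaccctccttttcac

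Irf7 and Irf8 each had a single CAGE cluster of 5 bp, at chr7:148452319-148452324 (minus) and chr8:123260255-123260260 (plus). Cluster coordinates are those of the deposited table (mm9), and a span is the end minus the start. Irf1 had 2 clusters on the plus strand, of 66 bp at chr11:53583490-53583556 and of 87 bp at chr11:53583936-53584023, with 5′ edges 446 bp apart. RefSeq gives Irf1 a pair of starts 459 bp apart in GRCm38.p6. Only distances, never positions, are set side by side between the builds. RefSeq also gives a pair of starts to Irf8 (2281 bp apart), Irf9 (594), Ifit2 (394) and Gbp3 (312), and each of these had 1 cluster.

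The remaining factors had wider clusters. Irf2, a related factor that can oppose IRF1, had one of 159 bp (chr8:47825060-47825219, plus) and one of 15 bp whose 5′ edge lies 544 bp downstream. Stat2 had a single cluster of 129 bp, and Irf9, its partner in the ISRE-binding complex, a single cluster of 102 bp. Irf3, the factor that starts type I interferon transcription after RNA sensing, had 7 clusters, 1 of 81 bp (chr7:52253005-52253086, plus) and 6 of 2 to 6 bp.

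Of the 4 receptor genes, all but Ifnar1 were among the 6 genes with the widest clusters. Ifngr1 had a single cluster of 197 bp at chr10:19311711-19311908 (plus), the widest of all 36 genes. Ifnar2 had 1 of 176 bp at chr16:91373024-91373200 (plus) and Ifngr2 1 of 152 bp at chr16:91547259-91547411 (plus). Ifnar1 had 4 on the plus strand, of 44, 5, 3 and 94 bp, the last at chr16:91485456-91485550. The promoters of the receptor genes differed from those of the antiviral genes in the number of CG dinucleotides. Those of Ifngr2 (chr16:91546939-91547058, plus) and Ifnar1 (chr16:91485095-91485214, plus) held the most of the 4 and are printed for contrast with the antiviral genes, with each CG in capitals.
Ifngr2: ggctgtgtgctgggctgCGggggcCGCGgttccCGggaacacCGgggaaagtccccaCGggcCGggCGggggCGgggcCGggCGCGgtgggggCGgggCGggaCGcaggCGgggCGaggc
Ifnar1: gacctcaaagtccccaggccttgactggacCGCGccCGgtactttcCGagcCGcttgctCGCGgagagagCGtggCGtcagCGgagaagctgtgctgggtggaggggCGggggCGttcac

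Over 300 bases, Ifngr2 held 31 CG, Ifnar1 26, Ifnar2 18 and Ifngr1 14. The median was 22 for the 4 receptor sequences, 18.5 for the 10 sequences of transcription factor genes and 4 for the 18 sequences of antiviral effectors, which ranged from 1 to 11. Over all promoter sequences in the table the median was 7, with quartiles of 3 and 20. Over those of protein-coding genes with a cluster it was 19, which Ifnar2 and Ifngr1 did not reach. The receptor sequences ran from 14 to 31 CG, and those of the transcription factor genes from 1 to 43, across the receptor and antiviral ranges. Those of the RNA sensors (14 and 15 CG) lay in the receptor range, and those of the antigen-processing genes ran from 11 to 17. Many of the antiviral sequences are of related copies, and the share of all promoter sequences in either range was not counted. The CG count was added after the sequences had been seen, and no test was made of it. Across the 32 genes with both values, the CG count and the span of the widest cluster had Spearman's rho of 0.23 and Pearson's r of 0.12, beside 0.27 for both over 11061 protein-coding genes. All points come from 1 catalogue, and genes are not replicates.

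**Figure D2:**
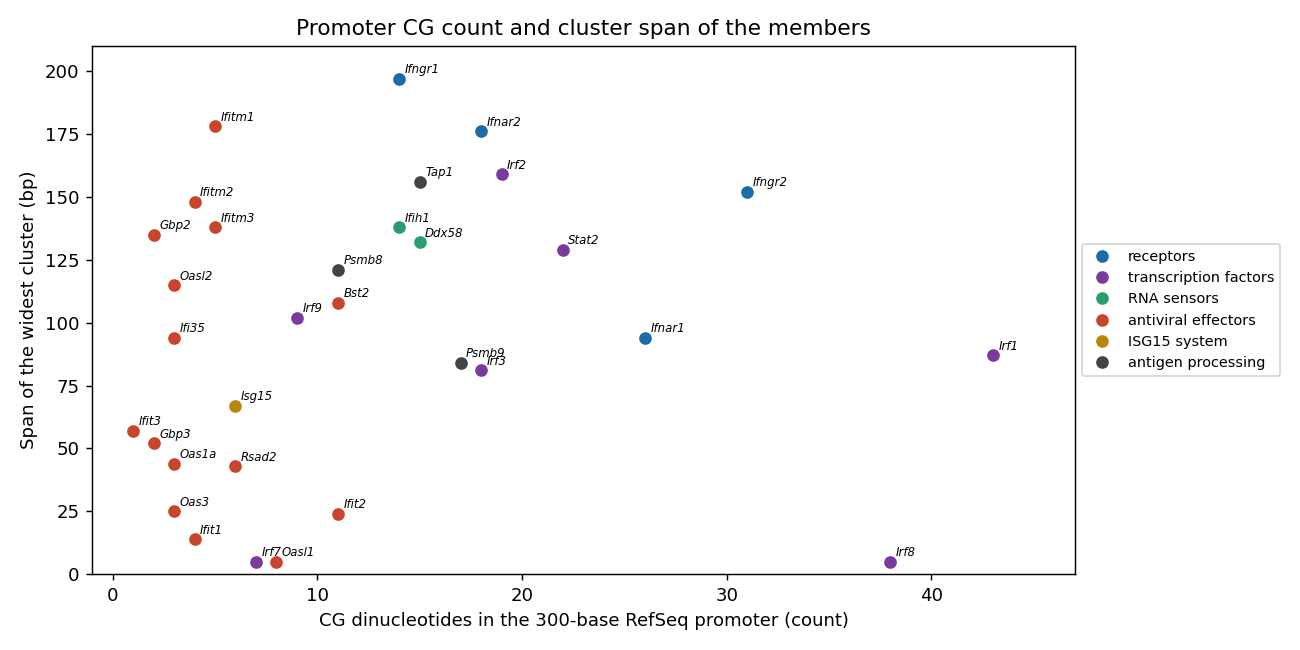
Span of the widest CAGE cluster (bp) against the number of CG dinucleotides in the 300-base RefSeq promoter (the higher where a gene has a pair), 1 point for each interferon-response gene, coloured by role. Receptor genes lie at 14 CG or more and antiviral genes at 11 or fewer, with spans of every size among the latter. Transcription factor genes lie across both ranges. RNA sensors and antigen-processing genes lie at 11 to 17 CG.

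Antiviral effector genes had clusters for 18 of 19 members, with widest spans from 3 to 178 bp and a median of 54.5 bp. Narrow clusters were found for Mx1, at 3 bp (chr16:97684512-97684515, minus), and Mx2, at 5 bp (chr16:97757686-97757691, plus). Both encode dynamin-like GTPases against viruses in other strains, and RefSeq lists both as transcribed pseudogenes in this C57BL/6J assembly. Oasl1 had 3 clusters, the widest of 5 bp at chr5:115373354-115373359 (plus). Ifit1 had 1 of 14 bp at chr19:34715367-34715381 (plus), beside 24 bp for Ifit2 and 57 bp for Ifit3. The OAS genes had 25 bp (Oas3), 44 bp (Oas1a) and 61 bp (Oas2), 1 cluster each, whereas Oasl2, of the OAS-like genes, had 2, of 115 and 86 bp. Rsad2 had 43 bp, Gbp3 52 bp, Ifi35 94 bp, Bst2 108 bp and Gbp2 135 bp, each as a single cluster. Ifi44 had no cluster under that name or an older one.

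The Ifitm genes, which encode membrane proteins that block virus entry, had the most clusters among the antiviral genes, ahead of Oasl1 (3) and Oasl2 (2). Ifitm1 had 4, Ifitm2 7 and Ifitm3 6, each with 1 wide cluster. That of Ifitm1 spanned 178 bp (chr7:148153995-148154173, plus), that of Ifitm2 148 bp (chr7:148141791-148141939, minus) and that of Ifitm3 138 bp (chr7:148196563-148196701, minus). All other clusters of these genes spanned 2 to 9 bp. Together with Irf3, they held 24 clusters, of which 20 spanned under 10 bp. Reads of related copies can be shared, so cluster counts in the Ifitm, Ifit, Oas and Gbp families are uncertain.

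The sensor genes Ifih1 (MDA5) and Ddx58 (RIG-I), whose proteins detect viral RNA in the cytoplasm, had clusters of 138 and 132 bp, and Ifih1 a further one of 22 bp. In the ISG15 system, Isg15 had one of 67 bp (chr4:155574885-155574952, minus) and one of 3 bp, 806 bp downstream. Usp18, which removes ISG15 and restrains the type I receptor, had 1 of 63 bp.

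**Figure D3:**
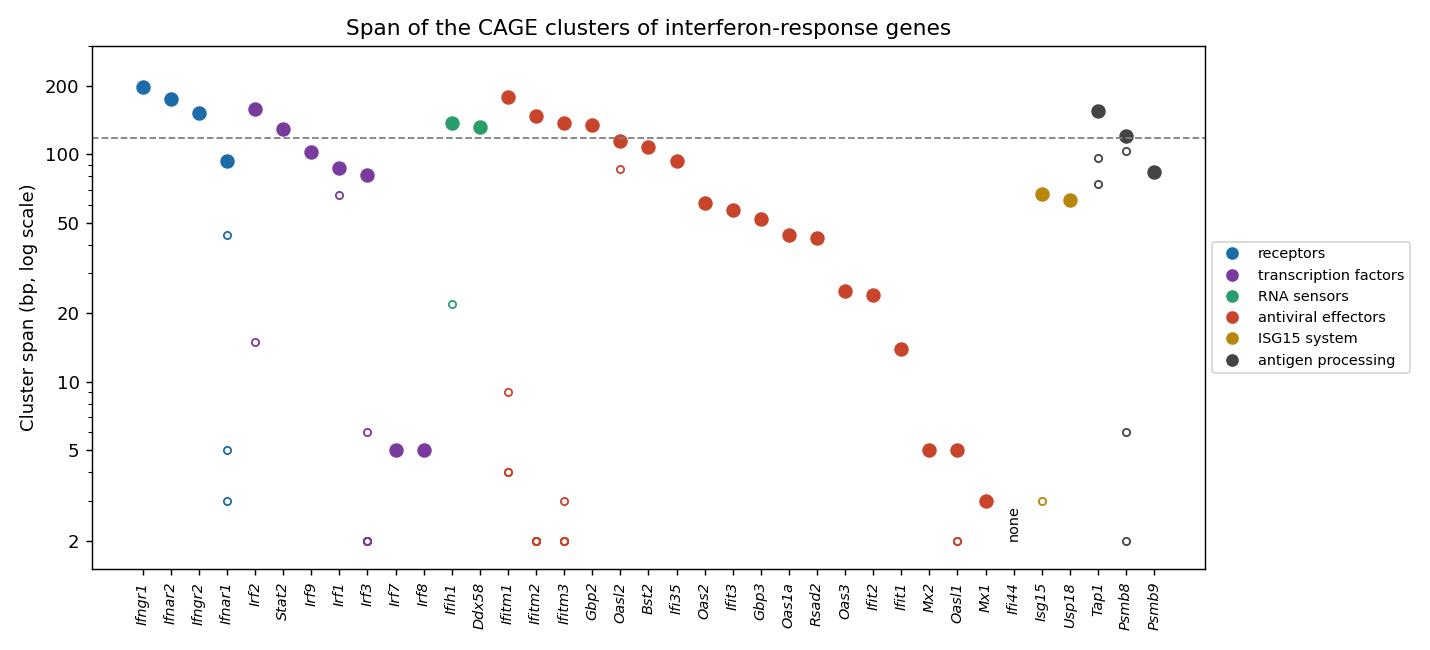
Span of every CAGE cluster of the interferon-response genes (bp, log scale), ordered by role and span. Filled points are the widest cluster of a gene, open points its others, and the dashed line is the median widest span of protein-coding genes with a cluster (118 bp). The sensor genes and the receptor genes other than Ifnar1 (94 bp) lie above the line, and most antiviral genes below it.

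Set beside all genes, the interferon-response genes were covered more fully, with fewer and narrower clusters. A cluster was present for 36 of 37 (97.3%, 95% Wilson interval 86.2 to 99.5, counting error only), and for 63.3% of all 21900 protein-coding genes. Of the 36, 13 (36.1%) had 2 or more clusters, against 57.6% of the 13869 protein-coding genes with a cluster. The median was 1 cluster per gene, against 2. With clusters no more than 100 bp apart joined, both medians were 1. The widest cluster had a median span of 90.5 bp (quartiles 43.75 and 135.75), against 118 bp (77 and 165). It spanned under 10 bp for 5 of the 36 (13.9%, against 5.41%). Among those 5 are the pseudogenes Mx1 and Mx2, whereas the background is protein-coding genes, and without them it was 3 of 34 (8.82%). The widest cluster spanned at least 100 bp for 16 of the 36 (44.4%, against 61.3%). These are descriptions of a list chosen by known function, with earlier results of these data known, and no test was made of them. No level was used, so whether the number and span of clusters follow the level of a gene was not tested. The chromosome and strand that GENCODE M21 gives were those of every cluster for all 36 genes. The authors assigned the symbols by a rule not given here, so this may not be an independent check. It was not counted over all genes.

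The 13 genes with several clusters held 35 besides their widest. Of these, 27 (77.1%) spanned under 10 bp and 22 (62.9%) lay downstream of the widest, against 68.6% and 60.7% of such clusters over protein-coding genes, which is close to the background. The others were a small set of 8 clusters of 15 to 103 bp, in Ifnar1, Irf1, Irf2, Ifih1, Oasl2, Psmb8 and Tap1. Neighbouring clusters at least 1000 bp apart were found for 1 of the 36 genes, Tap1, against 17.5% of protein-coding genes with a cluster. With a limit of 500 bp it was 5 genes, against 24.1%, because the gaps of Oasl1 (896 bp), Isg15 (739), Ifitm1 (634) and Ifitm3 (555) lie between the limits. Whether clusters that close to each other mark distinct promoters was not tested.

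**Figure D4:**
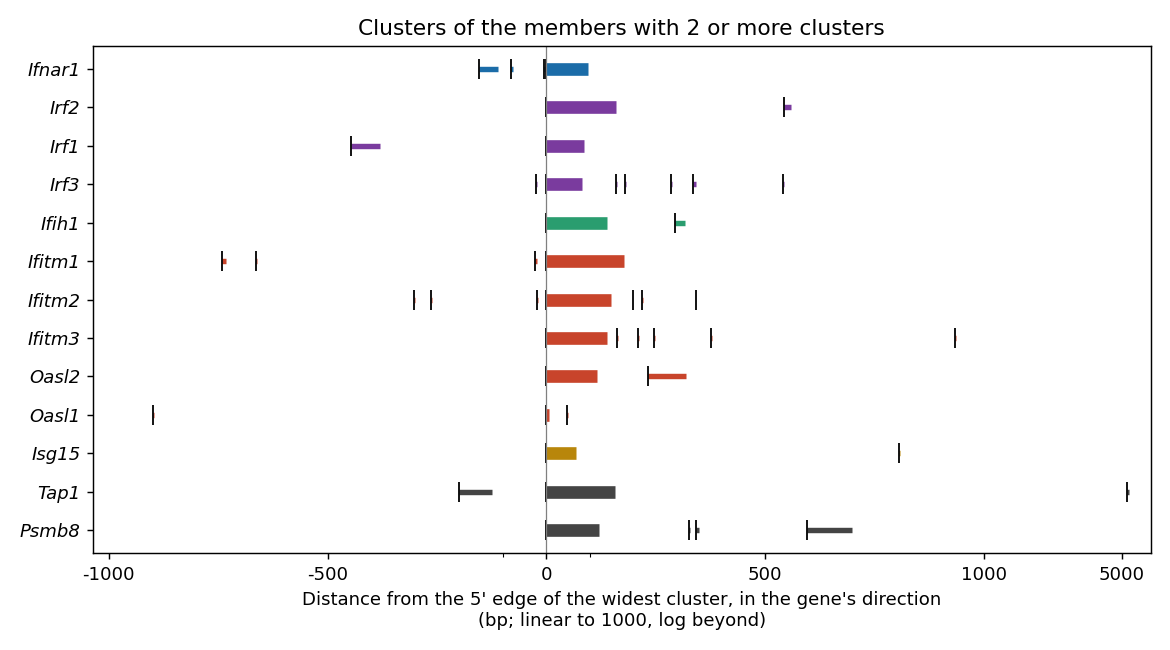
Clusters of the 13 interferon-response genes with 2 or more, placed by distance in bp from the 5′ edge of the widest cluster along the gene's direction (thick bar, at 0). The axis is linear to 1000 bp and logarithmic beyond, black ticks are 5′ edges, and thin bars are the other clusters. The Ifitm genes and Irf3 have many short clusters, and Tap1 has 1 cluster 5346 bp downstream.

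The antigen-processing genes share a locus on chromosome 17. Tap1 encodes a chain of the transporter that carries peptides to MHC class I, and Psmb8 and Psmb9 encode catalytic subunits of the immunoproteasome. Psmb9 had 1 cluster of 84 bp on the minus strand (chr17:34324251-34324335). On the plus strand, Tap1 had clusters of 74 bp (chr17:34324436-34324510) and 156 bp (chr17:34324635-34324791), with 5′ edges 101 and 300 bp from that of Psmb9. Its last cluster, of 96 bp, is at chr17:34329981-34330077. The RefSeq starts of Tap1 and Psmb9 are 226 bp apart, a value between the 2 CAGE distances. The 225 bases between these starts (chr17:34187331-34187555) are shown as read towards Tap1, because they serve as upstream sequence of both genes. CG is in capitals, and no ISRE core, GAS, TATA box or κB match was found in the promoter window of either gene.
Tap1: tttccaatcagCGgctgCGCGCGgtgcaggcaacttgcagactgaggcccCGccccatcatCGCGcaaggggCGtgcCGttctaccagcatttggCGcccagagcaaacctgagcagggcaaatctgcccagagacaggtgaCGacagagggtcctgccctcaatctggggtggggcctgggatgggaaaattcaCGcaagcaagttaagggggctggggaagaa

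Psmb8 had 4 clusters on the plus strand, of which the widest spanned 121 bp (chr17:34334664-34334785). Another of 103 bp (chr17:34335259-34335362) had its 5′ edge 595 bp downstream, and the other clusters spanned 2 and 6 bp. From the widest cluster of Tap1, these wider clusters of Psmb8 lay 10029 and 10624 bp away. The RefSeq starts of both genes are 10639 bp apart, which is within 15 bp of the distance to the downstream cluster. That is the nearer of the distances given, and distances from the other clusters of Tap1 were not set beside it.

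Start clusters facing away from each other were found at 6 of the 36 genes (16.7%), counted as a cluster on the opposite strand within 400 bp upstream of the widest, against 21.9% of protein-coding genes with a cluster. Besides Tap1 and Psmb9, Irf3 faced Bcl2l12, an apoptosis gene, across a gap of 21 bp, with 3 clusters of that gene within the limit. Irf2 faced Gm16675, a predicted gene, across 190 bp. Beside Ifnar1 and Ifngr1 the facing cluster carried no gene, with spans of 5 and 21 bp and gaps of 256 and 199 bp. Most of the interferon genes stood alone. For 28 of the 36 (77.8%) no cluster of another gene, or without a gene, lay within 3000 bp of the widest, against 56.8% of protein-coding genes with a cluster. This count was added after the table had been seen.

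Of the 36 genes, 22 lay within 500 kb of another on the same chromosome, in 14 neighbouring pairs. The list holds families of related copies, so this count describes the choice of genes, and it was not made over all genes. Along chromosome 16 the receptor genes follow each other on the plus strand, with Ifnar2 112.4 kb before Ifnar1 and Ifnar1 61.8 kb before Ifngr2. Mx1 and Mx2 point away from each other, 73.2 kb apart. On chromosome 19, Ifit2 lies 32.9 kb before Ifit3 and Ifit3 57.4 kb before Ifit1. On chromosome 5, Oas2 lies 27.8 kb from Oas3 and Oas3 129.9 kb from Oas1a, all on the minus strand, and Oasl2 lies 25.9 kb before Oasl1. On chromosome 7, Ifitm2 lies 12.1 kb from Ifitm1, Ifitm1 42.7 kb from Ifitm3, and Ifitm3 255.6 kb from Irf7. Gbp3 lies 60.0 kb before Gbp2 on chromosome 3.

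RefSeq starts were at hand for both genes in 12 of these 14 pairs. In 9 of them, the distance between the widest clusters was within 74 bp of the distance between RefSeq starts, among them Ifnar2 and Ifnar1, at 112432 bp in both. Ifit2 lay 32852 bp from Ifit3 by CAGE, beside 32835 and 32441 bp from its pair of RefSeq starts, so the upstream one gave the nearer value. The distances differed more for Tap1 and Psmb8 (by 610 bp), Oasl2 and Oasl1 (455 bp) and Gbp3 and Gbp2 (258 bp or more). Whether these reflect other start sites or differences between the builds was not tested.

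The rest of the pathway was covered unevenly. None of the 21 interferon ligand genes had a cluster (0.0%, Wilson interval 0.0 to 15.5), among them Ifnb1, the Ifna genes, the keratinocyte interferon Ifnk, the λ genes Ifnl2 and Ifnl3, and Ifng. An ISRE core was in the promoters of 11 of the 20 ligand genes with a sequence, beside 3.44% of all promoter sequences. All 11 were Ifna copies or Ifnab. Related copies are not independent of each other, which the Wilson interval of the ligand genes does not take into account. Receptors and signalling genes besides the list had clusters for 9 of 10, with 4 for Jak1 (widest 199 bp) and none for Tyk2. Nucleic acid sensors and inducers of interferon had them for 15 of 16, all but Tlr9. Other interferon-stimulated genes had them for 43 of 51 (84.3%), with a median widest span of 86 bp. Among these were Cxcl9 and Cxcl10, chemokines for T cells, with 7 and 13 bp. The 8 without were Igtp, Irgm2, Gbp5, Gbp11, Ifit1bl1, Ifit1bl2, Cxcl11 and Sp110. RefSeq lists Gbp11 and Cxcl11 as transcribed pseudogenes, and likewise Oas1b, which had a cluster. All 10 other class I genes had a cluster, including 8 for H2-K1 and 1 of 2 bp for Nlrc5, the transactivator of class I genes. All 6 IRF genes outside the list had one too.

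**Figure D5:**
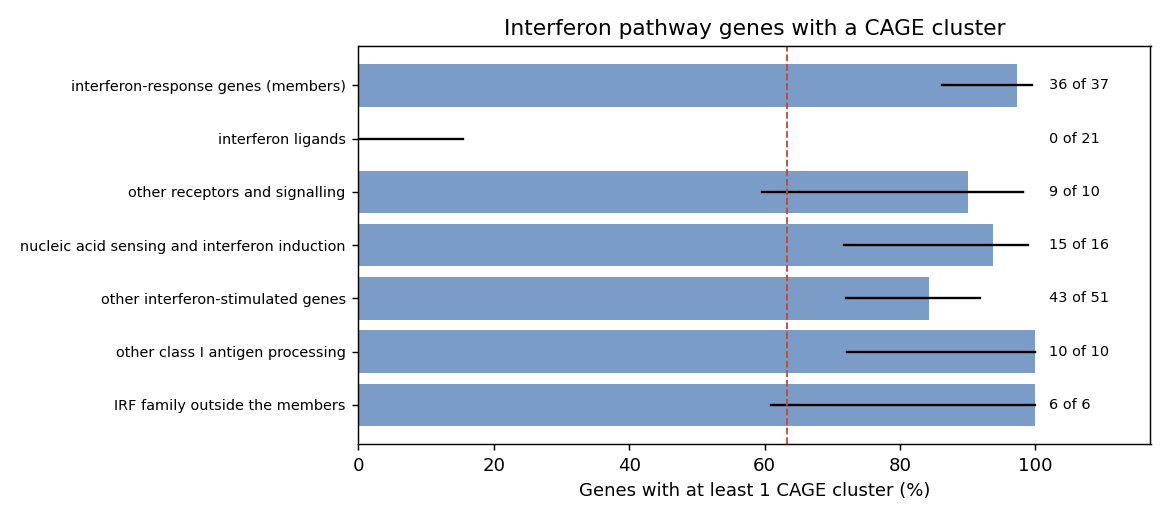
Share of genes with at least 1 CAGE cluster (%) for the interferon-response genes and for other lists of the interferon pathway, with 95% Wilson intervals (black lines) and counts at the right. The dashed line is the share of all protein-coding genes (63.3%), whereas the interferon-response genes and the other interferon-stimulated genes include transcribed pseudogenes. The interferon ligands alone stand at 0 of 21.

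Of the markers fixed for cells that make or answer interferon, 3 of 3 for macrophages (Csf1r, Adgre1, Cd68) had a cluster. So did 4 of 5 for plasmacytoid dendritic cells, namely Siglech, Ccr9, Tcf4 and Cox6a2, but not Klk1. Siglech, a receptor of these cells, had a single cluster of 2 bp, whereas Tcf4 had 21 clusters. For T and NK cells it was 2 of 5 (Cd3e and Cd3g, not Trbc2, Ncr1 or Klrb1c). RefSeq lists Trbc2 as a C region and not as a protein-coding gene, so the share of protein-coding genes does not cover it. A cluster was present for 63.3% of all protein-coding genes, so these counts alone do not show which cell types were present. In whole skin, fewer cells of a type and less RNA per cell cannot be told apart. Where a gene has no cluster, a low level, the unstated rule for making clusters and the symbol in use cannot be told apart.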

How the data were processed

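CAGE libraries of facial skin from 8 mice were deposited as 1 table with a row per cluster and gene. It gives the position and strand of the cluster, the gene symbol that the authors assigned, if any, and 8 numeric columns. The submitters' processing notes name BWA, HISAT2 and the build mm9, without versions. How tags were clustered and tied to genes is not given in the sources used here. The 8 value columns match no label, so they were not used, and the planned fits, normalizations, pseudocounts and left-out libraries were not run. Repeated positions were counted once. Symbols were matched to RefSeq (GRCm38.p6), with older symbols accepted for a single gene. Clusters were not placed on that build, so exons and introns are not stated. Promoters came from RefSeq, and motifs were searched as exact letters in 300 bases. The functions were tested on simulated data. Python 3.11.15, pandas 2.3.3 and scipy 1.17.1 were used.

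The genes and lists were chosen with earlier results of these data known. Under the rule for named genes, single values are given for genes with no cluster, the widest and narrowest 6, those with most clusters, and those with distant or divergent clusters. Spans of the other genes, and positions of Isg15 and Irf1, were added after their values were seen.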

Additional observations from a re-analysis of the deposited data

How the results depend on the processing

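No paired analysis was possible because no numeric column could be tied to a sample, so replicate numbers could not pair them. Of 29 alternative values for the summaries of the list, 24 stayed close to the reported one, which for the share of genes with a cluster means inside its Wilson interval and for any other value within 1.5 times. With clusters of at least 10 bp alone, the share of listed genes with a cluster moved from 97.3% to 83.8% (59.9% of protein-coding genes), as Irf7, Irf8, Mx1, Mx2 and Oasl1 have narrower clusters only. The median number of clusters was then 1 for the list and for protein-coding genes alike. With the protein-coding genes of the list alone, an alternative added after the data were seen, 8.82% in place of 13.9% had a widest cluster under 10 bp (5.41% of protein-coding genes). At a distance of 500 bp, 5 genes in place of 1 had distant clusters (24.1% of protein-coding genes). With facing neighbours that carry no gene alone, 2 genes were counted in place of 6 (9.97% of protein-coding genes). With 150 bases before the start in place of 250, 7 genes in place of 11 held GAS (5.42% of all promoters), because the window is shorter. With spacings changed by up to 1 base, 16 of 33 genes held GAS, and 21.6% of all promoters did. The ISRE count ran from 13 with the short window (2.06% of all promoters) to 18 with the looser spacing (8.61%). The depth of the libraries limits which genes have a cluster and was not analysed here.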
